A study of Mus musculus with 16 samples.

Results

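The 6 genes described here, Ttyh1, Gng4, Mrgprg, Vdr, Ccdc81 and Slc6a12, were picked by symbol from a table of 52997 gene symbols because they stood far higher after CGRP than after PBS, from low PBS levels. CGRP is calcitonin gene-related peptide, a neuropeptide of sensory nerve endings whose receptor raises cyclic AMP. The cells were mesenchymal stromal cells sorted from hindlimb skeletal muscle of C57BL/6 mice aged 8 weeks, and none of the groups carries a transgene or mutation in the labels. Mice received an intraperitoneal injection of PBS or of CGRP, and cells were taken 4 h or 8 h later, which gives the groups PBS 4 h, CGRP 4 h, PBS 8 h and CGRP 8 h with 4 biological replicates each. Every library was made from 1000 cells sorted 2 times in succession, with oligo(dT) priming and limited PCR amplification. The sources used here do not give the CGRP dose, the sort markers or how many mice went into a replicate, so p-values measure the spread between these samples, whatever its source.

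The 6 genes come from unrelated families. Ttyh1 encodes a membrane protein of the tweety family, known mostly from the nervous system. Gng4 encodes a gamma subunit of heterotrimeric G proteins, and Mrgprg one of the Mas-related receptors, a family best known from sensory neurons and mast cells. Vdr encodes the vitamin D receptor, a nuclear receptor that binds DNA as a partner of the retinoid X receptor when the active hormone is present. Slc6a12 encodes a transporter that carries betaine and GABA into cells and that kidney cells use to take up betaine as an osmolyte. Ccdc81 encodes a coiled-coil domain protein. None of these genes is a usual marker of muscle stromal cells.

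Library totals ran from 6373713 to 10011920 counts, and 21138 to 25579 genes had at least 1 read. PBS 4 h replicate 4, CGRP 4 h replicate 3, PBS 8 h replicate 1 and PBS 8 h replicate 4 were the 4 libraries with the most detected genes, and fits were repeated without them. Stromal markers were high in every library: 13 genes including Gsn, Col3a1, Pdgfra and Dcn summed to 146000 to 195000 CPM, the unit of counts scaled to library size. That sum was lower after CGRP than after PBS with no overlap, at 151000 to 158000 against 171000 to 195000 CPM at 4 h and at 146000 to 165000 against 171000 to 185000 CPM at 8 h. Most of the sum was Gsn, at a mean of 106000 CPM over the 16 libraries, so it mainly follows this 1 gene. At 4 h, 7 of the 13 stromal markers fell and 1 rose, where 8.37% of all genes fell and 7.84% rose; at 8 h 5 fell and 1 rose, where 3.67% and 5.0% did. Lower amounts of a transcript per cell and fewer cells of a type cannot be told apart in such bulk samples.

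Ttyh1 lies at chr7:4119408-4136708 on the plus strand (mm10, GENCODE M21; all positions of the 6 genes are from this annotation). Its level was 0.997, 1.04, 1.68 and 2.39 CPM in PBS 4 h replicates 1 to 4. After CGRP it was 18.5, 26.8, 48.8 and 37.8 CPM at 4 h. The 8 h libraries held 0.636, 0.732, 2.13 and 0.941 CPM after PBS and 12.3, 13.3, 7.19 and 13.6 CPM after CGRP. Every CGRP library lay above every PBS library, and the replicates of CGRP 4 h spread more widely than those of CGRP 8 h. Pooled over the 4 libraries, 1076 counts after CGRP against 53 after PBS gave a ratio of 20.5 at 4 h (95% interval 15.6 to 27.6). At 8 h, 403 against 31 counts gave 10.6 (7.33 to 15.8). These intervals, here and below, are exact binomial ones on the pooled counts scaled by library size; they cover counting error only, since PCR copies were not told apart by molecular identifiers. The fitted log2 differences of CGRP over PBS were 4.39 ± 0.36 (SE) at 4 h and 3.39 ± 0.40 at 8 h, the seventh and the 24th highest of the 13949 genes tested. Because these differences chose the genes, they are given with no test for all 6. The annotation has 2 antisense genes over Ttyh1, 9430041J12Rik with 14 counts and D030047H15Rik with 22 counts in all libraries together, and without strand their reads cannot be told apart from those of Ttyh1.

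Gng4 lies at chr13:13784059-13827896 on the plus strand. After PBS it was at 0.997, 2.18, 7.36 and 5.0 CPM at 4 h and at 4.07, 1.76, 3.49 and 2.55 CPM at 8 h. After CGRP its level was 46.4, 31.8, 33.3 and 44.4 CPM at 4 h and 7.08, 5.28, 6.14 and 7.49 CPM at 8 h. The 4 h libraries differed widely between treatments, while at 8 h the lowest CGRP library, at 5.28 CPM, stood not far above the highest PBS library, at 4.07 CPM. The ratio of pooled counts was 10 at 4 h (8.39 to 12.1) and 2.15 at 8 h (1.67 to 2.78), with fitted log2 differences of 3.32 ± 0.35 and 1.11 ± 0.39. PBS 4 h replicates 3 and 4 were the high PBS libraries at that time.

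Mrgprg lies at chr7:143763710-143766993 on the minus strand. In PBS 4 h it was at 0.997, 0.208, 1.03 and 0.416 CPM, which is 21 counts in all. CGRP 4 h held 11, 2.18, 3.39 and 7.18 CPM, from 207 counts, with replicate 1 alone giving 108 of them. No PBS 8 h library had a read of Mrgprg, which allows a level of up to 0.104 CPM over that group (3 counts). CGRP 8 h held 0.505, 0.97, 0.417 and 0.459 CPM from 21 counts. The receptor gene was therefore near the limit of detection everywhere but in CGRP 4 h, where its libraries spread over 2.18 to 11 CPM. The ratio of pooled counts was 9.97 at 4 h (6.35 to 16.5), and at 8 h the level after CGRP was at least 5.69-fold higher, taken against the limit of 3 counts; the exact interval of that ratio, which also covers the counting error of the 21 counts, starts at 4.23. The fitted log2 difference was 3.19 ± 0.58 at 4 h.

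Vdr lies at chr15:97854425-97910630 on the minus strand. Its level in PBS 4 h was 1.28, 0.936, 1.55 and 0.208 CPM, and in PBS 8 h it was 0, 0.293, 0 and 0.537 CPM, from 6 counts in all. CGRP libraries held 9.95, 7.86, 16.6 and 15.4 CPM at 4 h and 1.72, 2.48, 2.19 and 1.68 CPM at 8 h. The groups did not overlap at either time, but the CGRP 8 h level was close to the highest PBS 4 h library. Pooled ratios were 13.0 at 4 h (9.06 to 19.2) and 9.76 at 8 h (4.27 to 27.5), with fitted log2 differences of 3.67 ± 0.46 and 3.19 ± 0.64. The PBS 8 h group rests on 6 counts, and without its replicate 4, which held 4 of them, the 8 h difference was 4.23 and the 8 h effect less the 4 h effect, described below, turned from -0.48 to 0.56.

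Ccdc81 lies at chr7:89866148-89903629 on the minus strand. PBS 4 h held 3.70, 3.12, 6.97 and 3.02 CPM and CGRP 4 h 7.52, 4.84, 10.1 and 9.97 CPM, so that CGRP replicate 2 lay below PBS replicate 3. PBS 8 h held 0.509, 0.439, 0 and 1.34 CPM and CGRP 8 h 5.26, 7.87, 9.79 and 8.10 CPM, with no overlap. Both CGRP groups were alike, at 8.09 ± 2.47 and 7.76 ± 1.87 CPM (mean ± SD, n = 4), while the PBS groups were at 4.2 ± 1.87 and 0.573 ± 0.561 CPM. Pooled ratios were 1.96 at 4 h (1.59 to 2.42) and 13.0 at 8 h (7.98 to 22.7), and the fitted log2 differences 0.95 ± 0.37 and 3.69 ± 0.48. The difference at 4 h ranked 454th of the 13949 genes and that at 8 h ranked 17th. Without PBS 8 h replicate 4, the highest of its group, the 8 h difference was 4.51, and without the 4 libraries with the most detected genes it was 5.03.

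Slc6a12 lies at chr6:121343076-121365775 on the plus strand. It was at 5.27, 4.06, 4.13 and 8.64 CPM in PBS 4 h and at 27.6, 26.7, 20.5 and 27.7 CPM in CGRP 4 h. Levels at 8 h were 2.04, 2.34, 1.67 and 2.15 CPM after PBS and 5.26, 4.64, 5.73 and 6.27 CPM after CGRP. This transporter had the lowest coefficient of variation of the 6 genes in each group, apart from the PBS 8 h libraries of Mrgprg, which are all at 0: it was 12.7% to 13.8% outside PBS 4 h and 38.9% there. CGRP 8 h, at 5.47 ± 0.694 CPM, was no higher than PBS 4 h, at 5.53 ± 2.15 CPM. Pooled ratios were 4.58 at 4 h (3.91 to 5.38) and 2.63 at 8 h (1.96 to 3.59), with fitted log2 differences of 2.20 ± 0.22 and 1.40 ± 0.26.

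**Figure D1:**
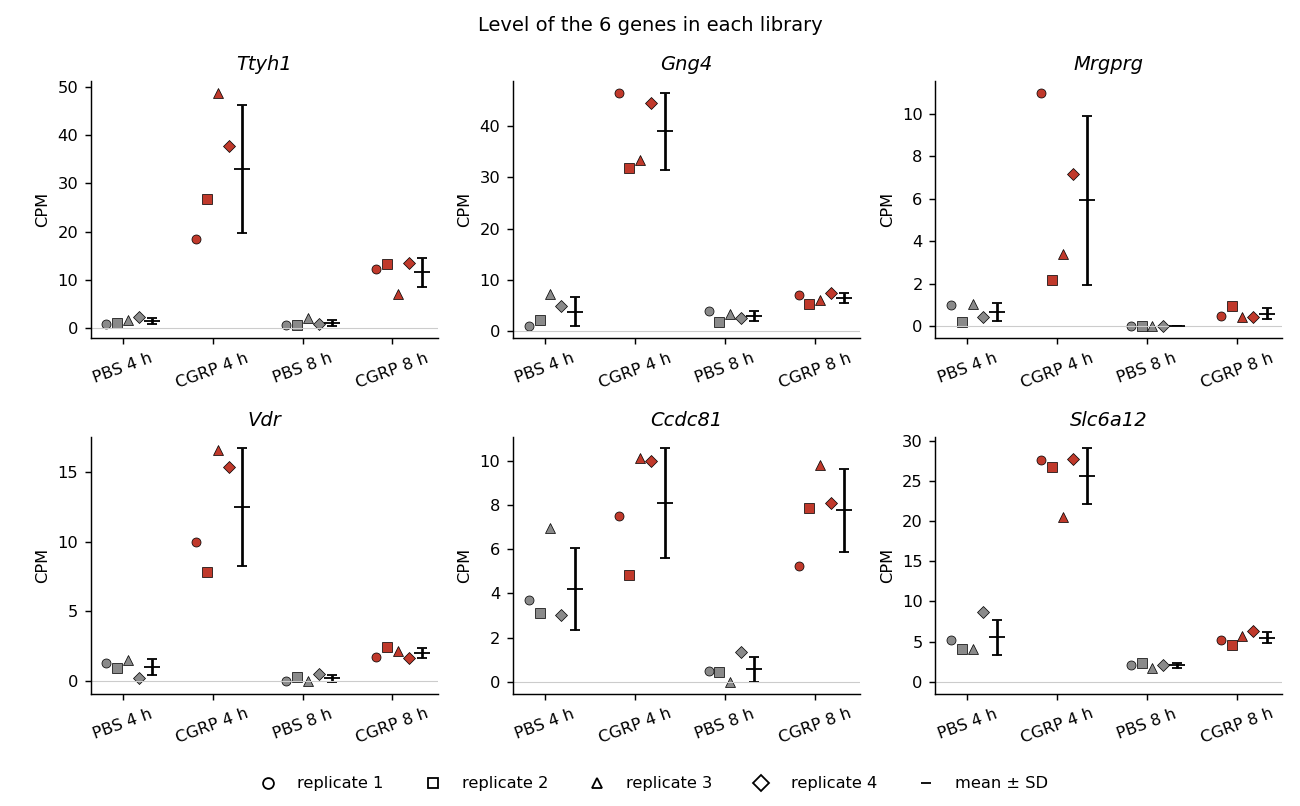
Each panel plots 1 gene's level in CPM (vertical axis, linear from 0, with its own scale) in the 16 libraries; grey marks are PBS and red marks CGRP libraries, the marker shape gives the replicate number, and the black bar is the mean ± SD of 4 libraries. CGRP 4 h has the highest mean for each of the 6 genes, but for Ccdc81 the means of the 2 CGRP groups are close, at 8.09 and 7.76 CPM.

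Counted together, 5 of the 6 genes had CGRP libraries that all lay above the PBS libraries at 4 h, and 6 of 6 did at 8 h. Over all genes tested, 8.95% did so at 4 h and 8.08% at 8 h; since the genes were chosen on this difference, nothing is read from these shares. The median log2 difference over the 6 genes was 3.25 at 4 h and 3.29 at 8 h. These nearly equal medians hide differing orders. Subtracting the 4 h effect from the 8 h effect gave -2.20 ± 0.53 (SE) on the log2 scale for Gng4, -1.0 ± 0.58 for Ttyh1, -0.80 ± 0.35 for Slc6a12 and -0.48 ± 1.07 for Vdr, against 2.74 ± 0.62 for Ccdc81. For Mrgprg it depends on a group at 0 counts and is not given.

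The course from 4 h to 8 h was compared within each treatment by edgeR's quasi-likelihood test, with p-values adjusted over all 13949 genes (Benjamini-Hochberg). This is another contrast than the one that chose the genes, but it rests on the same libraries. High levels after CGRP were part of that choice, so the counts and p-values below are not independent of it. Nothing is read from them beside the shares of all genes. Mrgprg passed the filter on low counts only through CGRP 4 h, so its fall from that group is described and not tested. After CGRP, 4 of the other 5 genes were lower at 8 h than at 4 h, where 3.05% of all genes were called lower. The log2 differences of 8 h over 4 h were -2.23 ± 0.22 for Slc6a12 (adjusted p = 8.19e-07), -2.59 ± 0.33 for Gng4 (9.12e-05), -2.61 ± 0.42 for Vdr (3.89e-04) and -1.51 ± 0.29 for Ttyh1 (0.00237). In all 4, the 8 h libraries lay below all the 4 h libraries, as they did for 5.74% of all genes. By ratios of pooled counts, Mrgprg was 10.4 times higher at 4 h (6.60 to 17.1), Gng4 6.11 times (5.30 to 7.06), Vdr 6.00 times (4.66 to 7.82), Slc6a12 4.75 times (4.06 to 5.59) and Ttyh1 2.81 times (2.5 to 3.15). Ccdc81 did not pass the test (log2 difference -0.06 ± 0.36, adjusted p = 0.954), and its ratio of 4 h to 8 h was 1.04 (0.875 to 1.23).

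After PBS, 2 of the genes other than Mrgprg were lower at 8 h than at 4 h, where 0.251% of all genes were called lower. Low PBS levels were part of the choice of the genes. This count and the p-values below are therefore not independent of that choice, and nothing is read from the shares. For 3 of the 6, Ccdc81, Slc6a12 and Mrgprg, every 8 h library lay below every 4 h library, as for 4.22% of all genes. Ccdc81 fell by 2.80 ± 0.50 on the log2 scale (edgeR, adjusted p = 0.0135), a ratio of 6.91 in favour of 4 h (4.16 to 12.2). Slc6a12 fell by 1.43 ± 0.26 (adjusted p = 0.0154), a ratio of 2.74 (2.03 to 3.73). Both calls were lost when a single library was left out. Without PBS 8 h replicate 1 the adjusted p was 0.0539 for each, and without PBS 8 h replicate 3 it was 0.0541 for Slc6a12. The falls themselves changed little without replicate 1, at -2.73 for Ccdc81 and -1.42 for Slc6a12. In that fit 17 genes were called after PBS, in place of 72. Without the 4 libraries with the most detected genes the adjusted p was 0.133 for Slc6a12 and 0.014 for Ccdc81. Mrgprg went from 21 counts to 0, at least 5.91-fold lower against the limit of 3 counts (exact interval from 4.4). Since it passed the filter only through CGRP 4 h, this fall too is described and not tested. Vdr had a log2 difference of -2.13 ± 0.71 (adjusted p = 0.172, and 0.0458 without PBS 4 h replicate 4). Neither Ttyh1 (-0.51 ± 0.49, adjusted p = 0.729) nor Gng4 (-0.39 ± 0.41, adjusted p = 0.755) passed the test. Without PBS 8 h replicate 4, the fall of Ccdc81 was -3.61 on the log2 scale, that of Vdr -3.16. The larger CGRP difference of Ccdc81 at 8 h thus went with a lower PBS level at 8 h, while its levels at 4 h and 8 h after CGRP did not pass the test.

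**Figure D2:**
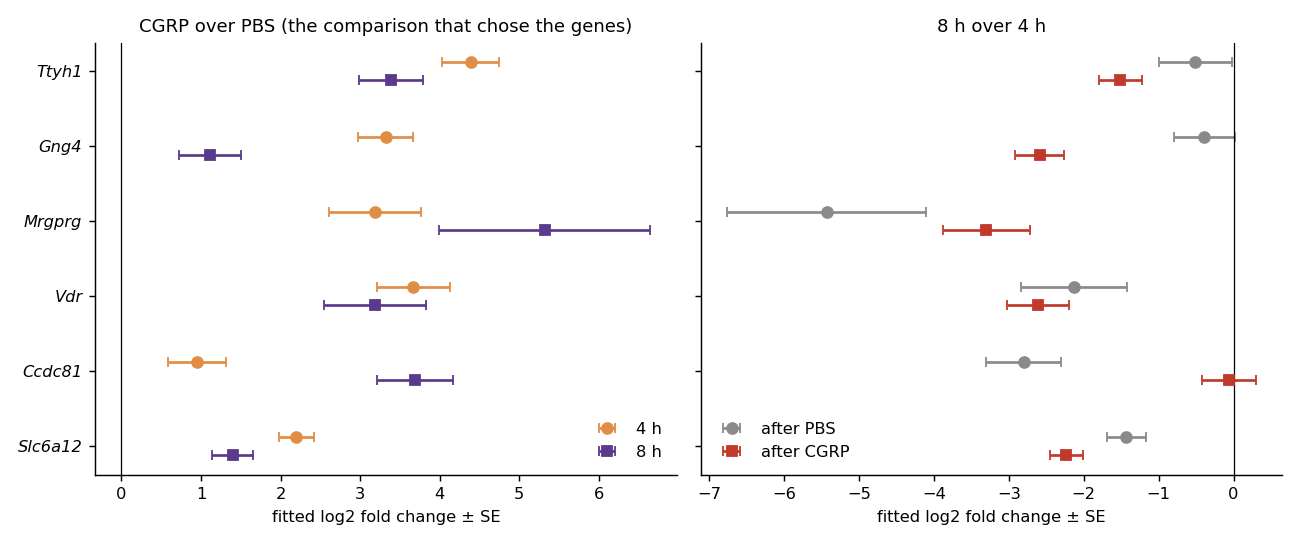
Both panels plot fitted log2 fold changes with their SE for the 6 genes: on the left CGRP over PBS at 4 h (circles) and 8 h (squares), on the right 8 h over 4 h after PBS (grey circles) and after CGRP (red squares). Ccdc81 is at -2.80 after PBS and -0.06 after CGRP, whereas Gng4 is at -0.39 and -2.59; the fitted values of Mrgprg that involve PBS 8 h rest on 0 counts and are no measure of size.

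Levels of different genes were compared per kilobase of annotated exon. In CGRP 4 h the order was Gng4 (11.7 ± 2.24 CPM per kb, mean ± SD), Slc6a12 (8.40 ± 1.13), Ttyh1 (5.17 ± 2.06), Mrgprg (2.98 ± 2.00), Ccdc81 (2.90 ± 0.885) and Vdr (2.20 ± 0.746). Gng4 and Slc6a12 did not overlap in that group, whereas each later neighbour in the order overlapped the one before it. By 8 h after CGRP the first place had passed to Ccdc81 at 2.78 ± 0.671 CPM per kb. Gng4 (1.95 ± 0.296), Ttyh1 (1.82 ± 0.469) and Slc6a12 (1.79 ± 0.228) followed with overlapping libraries. Vdr (0.357 ± 0.0681) and Mrgprg (0.295 ± 0.129) overlapped each other and lay below the other 4 genes. The PBS 4 h order was Slc6a12 (1.81 ± 0.705 CPM per kb), Ccdc81 (1.51 ± 0.670), Gng4 (1.16 ± 0.856), Mrgprg (0.334 ± 0.208), Ttyh1 (0.239 ± 0.103) and Vdr (0.176 ± 0.103), each overlapping the next. Low levels after PBS were part of the choice of the 6 genes, so they are not read as a result. Vdr stayed the lowest or next to lowest of the 6 in every group.

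Ttyh1 and Gng4 are known mainly from neurons, and Mas-related receptors from neurons and mast cells, so markers of these cells were read beside them. The 10 neuronal markers summed to 30.5 to 36.6 CPM in PBS 4 h and 23.1 to 43.5 CPM in CGRP 4 h, and to 39.5 to 45.0 and 28.3 to 40.2 CPM at 8 h. Most of that sum was Uchl1 and Rbfox3; Elavl3, Elavl4 and Snap25 had 14, 6 and 17 counts over all 16 libraries. Of the 10 Schwann and glial markers, none was called higher after CGRP, and their sum was 96.1 to 112 against 87.5 to 113 CPM at 4 h. The 8 mast cell markers summed to 0.427 to 2.19 CPM in PBS 4 h and 0.399 to 1.26 CPM in CGRP 4 h. No neuronal, glial or mast cell sum therefore rose above its PBS range in all libraries of a CGRP group. Epithelial markers, read because Vdr is abundant in epithelia, summed to at most 1.63 CPM in any library, with Cldn4 at 0 throughout. The 8 pericyte and smooth muscle markers did differ at 4 h, with 89.8 to 107 CPM after CGRP below 132 to 177 CPM after PBS, and so did the glial sum at 8 h (67.3 to 87.0 below 105 to 129 CPM) and the endothelial sum at 8 h (78.8 to 105 below 109 to 130 CPM). Most of the endothelial sum was Tek and most of the glial sum Scn7a, at means of 105 and 82.5 CPM over the 16 libraries. At 8 h no endothelial marker was called, with 1 tested, and 1 of the 7 tested glial markers was called lower. The part of these shifts in the levels of the 6 genes was not tested.

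Genes of the same families and pathways were read from 8 lists holding 136 genes, of which 71 could be tested. At 4 h, 4 of the 71 were called higher and 17 lower after CGRP; over all genes 7.84% were called higher and 8.37% lower. At 8 h, 5 were called higher and 7 lower, against 5.0% and 3.67% of all genes. These splits moved with the settings. At 4 h there were 7 higher and 12 lower with library totals only, and 6 and 8 without the 4 libraries with the most detected genes. At 8 h the balance turned to 7 higher and 4 lower with library totals only and to 8 and 4 with no filter, and was 3 and 7 with upper-quartile scaling and 2 and 0 without those 4 libraries. The share of higher among all called genes moved likewise, from 48.4% at 4 h and 57.7% at 8 h to 60.2% and 71.7% with library totals only and to 39.8% and 45.0% with upper-quartile scaling. The median log2 difference of the 71 genes was -0.10 at 4 h and -0.06 at 8 h, beside 0.00 and -0.02 for all genes. Among the called genes of these lists, Thbd had the largest rise at 4 h and Slc6a2 at 8 h. The shares of all genes given here also stand beside the counts of each list below.

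Among the relatives of Ttyh1, neither Ttyh2 (log2 difference -0.34 ± 0.20 at 4 h and 0.44 ± 0.19 at 8 h) nor Ttyh3 (-0.77 ± 0.30 and -0.16 ± 0.29) passed the edgeR test, with adjusted p from 0.0836 to 0.818; Ttyh2 at 8 h passed with no filter on low counts (0.00458) and without CGRP 8 h replicate 2 (0.0142). Ttyh2 after CGRP was higher at 8 h than at 4 h, by 0.89 ± 0.19 (adjusted p = 0.00948). Both fitted values were negative at 4 h. Over all genes 7.84% were called higher at that time, so the absence of a higher call among 2 genes is not read as a result.

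Of 13 tested G-protein beta and gamma subunits, 6 fell and none rose at 4 h, the direction opposite to Gng4; at 8 h 1 rose and none fell. Gnb4, a beta subunit, went from 141 ± 10.4 CPM after PBS to 77.8 ± 15.5 CPM after CGRP at 4 h (log2 difference -0.86 ± 0.11, edgeR adjusted p = 1.84e-05). Gng11, a gamma subunit, went from 67.5 ± 4.92 to 42.2 ± 6.32 CPM (-0.68 ± 0.11, adjusted p = 1.58e-04). At 8 h both were level with PBS, at 131 ± 7.14 against 130 ± 6.54 CPM and 62.8 ± 2.58 against 64.2 ± 6.75 CPM. Gnb2 fell at 4 h (-0.40 ± 0.10, adjusted p = 0.0105; 0.0968 without the 4 libraries with the most detected genes). So did Gnb1 (-0.24 ± 0.07, adjusted p = 0.0179), whose call was lost without PBS 4 h replicate 1, CGRP 4 h replicate 3 or CGRP 4 h replicate 4 (adjusted p 0.0677 to 0.0795). It was also lost with library totals only (0.0779), with no filter (0.145) and without those 4 libraries (0.136).

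Only 3 of 20 listed Mas-related receptors had enough reads to test. Mrgprf, an orphan receptor of the family, was far more abundant than Mrgprg, at 177 ± 11.7 CPM in PBS 4 h. It fell at 4 h (-0.40 ± 0.09, edgeR adjusted p = 0.00495) and rose at 8 h (0.34 ± 0.09, adjusted p = 0.0251). The 8 h call was lost without PBS 8 h replicate 1, PBS 8 h replicate 4 or CGRP 8 h replicate 1 (0.0544 to 0.10). It was also lost with upper-quartile scaling (0.0516) and without the 4 libraries with the most detected genes (0.361). Mrgpre, the gene next to Mrgprg, was at 8.24 ± 1.92 CPM after PBS and 7.57 ± 3.32 CPM after CGRP at 4 h, with no call (adjusted p = 0.86).

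The partners of Vdr were read next. Of 13 tested genes of vitamin D metabolism and receptor partners, none was called higher and 3 were called lower at each time. Over all genes, 7.84% were called higher and 8.37% lower at 4 h, and 5.0% and 3.67% at 8 h. The absence of a higher call in so short a list is therefore not read as a result. Rxra, its DNA-binding partner, was at 40.7 ± 4.31 CPM after PBS and 38.1 ± 2.98 CPM after CGRP at 4 h (log2 difference -0.09 ± 0.11, edgeR adjusted p = 0.657). Cyp27a1, a sterol hydroxylase that can act on vitamin D, fell at 4 h (-0.80 ± 0.13, adjusted p = 2.67e-04) and at 8 h (-0.59 ± 0.13, adjusted p = 0.00667; 0.137 without the 4 libraries with the most detected genes). The coactivators Ncoa1 (-0.42 ± 0.11 at 4 h, adjusted p = 0.0143; 0.103 without those 4 libraries), Ncoa3 (-0.35 ± 0.11 and -0.39 ± 0.11) and Ncoa2 (-0.42 ± 0.12 at 8 h) were also called lower. The calls of Ncoa3 were lost without any 1 of PBS 4 h replicate 4 and CGRP 4 h replicates 2, 3 and 4 for 4 h (adjusted p 0.0541 to 0.114), and of PBS 8 h replicates 3 and 4 and CGRP 8 h replicates 2 and 4 for 8 h (0.0581 to 0.106). That of Ncoa2 was lost without any 1 of PBS 8 h replicates 1 and 4 and CGRP 8 h replicates 1, 2 and 4 (0.0552 to 0.143). Without those 4 libraries the adjusted p was 0.171 and 0.206 for Ncoa3 at 4 h and 8 h and 0.548 for Ncoa2. With library totals only it was 0.0656 and 0.0548 for Ncoa3 and 0.0657 for Ncoa2, and with no filter it was 0.0786 for Ncoa2.

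Known target genes of the receptor gave a mixed picture, with 2 of 12 tested called higher and none lower at 4 h, and 1 higher and 1 lower at 8 h. Thbd, which encodes the anticoagulant receptor thrombomodulin, went from 251 ± 39.6 to 1090 ± 117 CPM at 4 h (log2 difference 2.12 ± 0.10, edgeR adjusted p = 1.66e-12). At 8 h it was at 382 ± 28.1 against 191 ± 12.1 CPM (1.00 ± 0.10, adjusted p = 2.62e-06). Cyp24a1, which breaks down the active hormone and is the most responsive target in many tissues, had 10 counts in all 16 libraries and was not tested; no library at 8 h had a read of it. Cdkn1a, a cell cycle inhibitor, rose at 4 h (0.61 ± 0.18, adjusted p = 0.0297), a call lost without any 1 of PBS 4 h replicates 1, 2 and 3 and CGRP 4 h replicates 1, 2 and 4 (0.062 to 0.0857). Its relative Cdkn1b fell at 8 h (-0.40 ± 0.10, adjusted p = 0.013), a call lost without PBS 8 h replicate 1 or CGRP 8 h replicate 1 (0.0506 to 0.0576). That call was also lost with no filter (0.0983) and without the 4 libraries with the most detected genes (0.15).

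Slc6a12 belongs to the sodium-coupled transporters of family SLC6, of which 7 of 19 listed genes were tested. Slc6a2, the noradrenaline transporter, rose at 4 h from 24.1 ± 4.32 to 44.9 ± 7.40 CPM (log2 difference 0.90 ± 0.16, edgeR adjusted p = 5.01e-04). At 8 h it was at 53.4 ± 3.43 against 18.4 ± 4.71 CPM (1.54 ± 0.16, adjusted p = 5.32e-06). Slc6a13, a GABA transporter whose gene is the nearest neighbour of Slc6a12, was not called at 4 h (0.72 ± 0.38, adjusted p = 0.223) or 8 h (1.28 ± 0.41, adjusted p = 0.0573; 0.0132 in DESeq2, 0.0458 with library totals only, 1.16e-04 with no filter, and 0.0363 to 0.0495 without PBS 4 h replicate 3, CGRP 4 h replicates 1 or 4 or PBS 8 h replicate 1). The taurine transporter Slc6a6 was lower at 4 h (-0.80 ± 0.23, adjusted p = 0.0263), lost without any 1 of PBS 4 h replicates 1, 2 and 4 and CGRP 4 h replicates 1 and 2 (0.0595 to 0.0874). The proline transporter Slc6a7 was lower at 8 h (-1.68 ± 0.52, adjusted p = 0.0452), lost without any 1 of 10 libraries (0.0525 to 0.206): PBS 8 h replicates 1, 2 and 4, CGRP 8 h replicates 1, 3 and 4, PBS 4 h replicate 4 and CGRP 4 h replicates 2, 3 and 4.

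Of 14 tested genes of osmolyte accumulation and betaine metabolism, 1 rose and 4 fell at 4 h, and 1 rose and none fell at 8 h. Nfat5, the transcription factor that drives Slc6a12 in hypertonic kidney cells, was lower at 4 h (-0.40 ± 0.11, edgeR adjusted p = 0.0179), a call lost without any 1 of PBS 4 h replicates 2 and 3 and CGRP 4 h replicates 1 and 2 (0.0512 to 0.0749). Slc7a1, a carrier of cationic amino acids, rose at 4 h from 18.7 ± 3.52 to 33.8 ± 2.26 CPM (0.85 ± 0.18, adjusted p = 0.00242). Akr1b3, aldose reductase, rose at 8 h from 43.1 ± 0.986 to 57.9 ± 3.72 CPM (0.43 ± 0.10, adjusted p = 0.00989; 0.113 without the 4 libraries with the most detected genes). Over all genes, 7.84% were called higher and 8.37% lower at 4 h, and 5.0% and 3.67% at 8 h. The median log2 difference of the 14 genes was 0.03 at 4 h and -0.03 at 8 h, beside 0.00 and -0.02 for all genes.

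GABA is the other cargo of this transporter, and of 8 tested genes of GABA synthesis, breakdown and reception none rose, 3 fell at 4 h and 2 fell at 8 h. Gabrr2, a GABA receptor subunit, went from 6.67 ± 0.516 to 1.67 ± 1.11 CPM at 4 h (log2 difference -2.0 ± 0.44, edgeR adjusted p = 0.00359) and was at 3.04 ± 2.05 against 7.64 ± 2.13 CPM at 8 h (-1.36 ± 0.42, adjusted p = 0.0451). The 8 h call was lost without any 1 of 10 libraries (0.054 to 0.153), namely all 4 of PBS 4 h, CGRP 4 h replicate 4, PBS 8 h replicates 1, 3 and 4 and CGRP 8 h replicates 1 and 3. The subunit gene Gabrb2 fell at 4 h (-2.64 ± 0.69, adjusted p = 0.0111; 0.0977 without the 4 libraries with the most detected genes). Gabbr1 at 4 h (-0.66 ± 0.22, adjusted p = 0.0405) lost its call without any 1 of 10 libraries (0.0502 to 0.128): PBS 4 h replicates 1, 2 and 4, CGRP 4 h replicates 1, 3 and 4, PBS 8 h replicates 1 and 4 and CGRP 8 h replicates 2 and 4. Gabra3 at 8 h (-0.73 ± 0.20, adjusted p = 0.0216) lost it without PBS 8 h replicates 3 or 4 or CGRP 8 h replicates 1 or 4 (0.0571 to 0.0965).

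**Figure D3:**
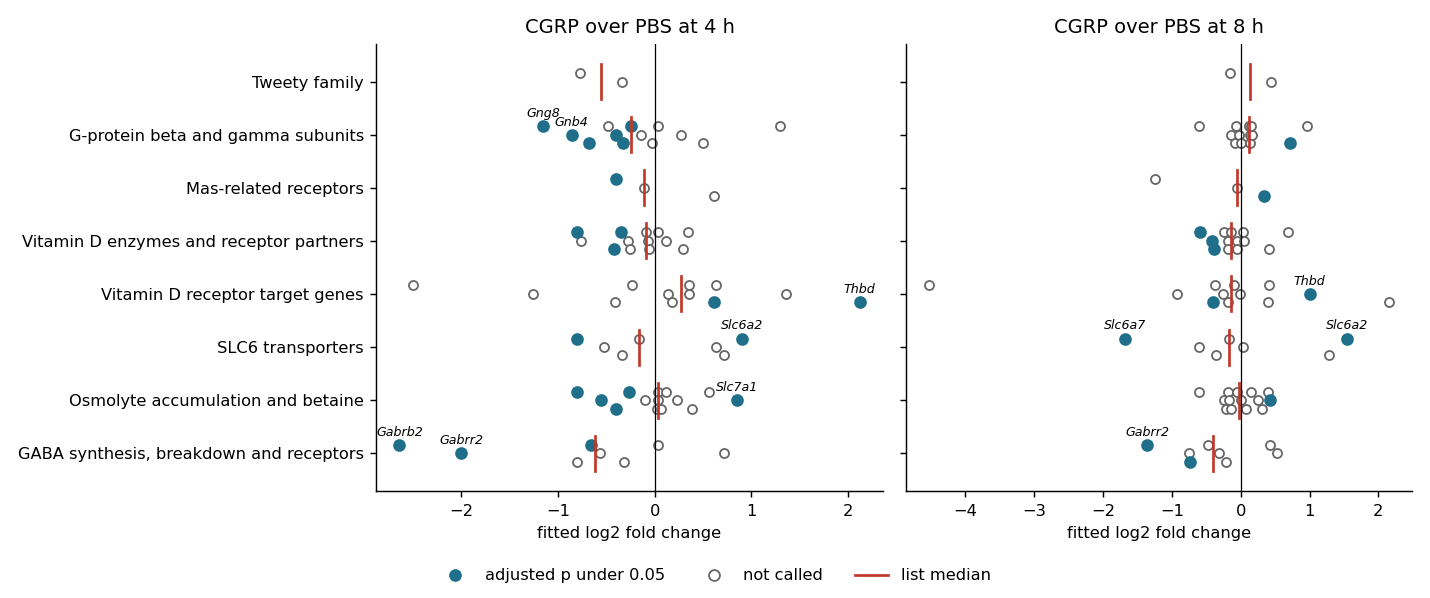
Points are the fitted log2 fold changes of CGRP over PBS (horizontal axis) of the tested genes of each list (rows) at 4 h and 8 h; filled points passed an adjusted p of 0.05, open points did not, and the red bar is the list median. Thbd at 2.12 and 1.00 is the highest filled point at 4 h and, in its own row, at 8 h, while 6 of the 13 G-protein subunits lie filled on the left at 4 h.

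The genes beside the 6 on the chromosome were read next, 2 protein-coding genes on each side, of which 19 of 24 were tested. At 4 h, 3 were called higher and 2 lower (16.2% of all genes were called in either direction), and at 8 h 3 were higher and 1 lower (8.67% of all genes). Their log2 differences ran from -0.87 to 0.84 at 4 h and from -0.79 to 1.28 at 8 h, with medians of -0.09 and 0.07. Hdac7, a histone deacetylase 9.9 kb from Vdr, rose at 4 h (0.50 ± 0.09, edgeR adjusted p = 6.90e-04) and 8 h (0.48 ± 0.09, adjusted p = 0.00278; 0.0595 without the 4 libraries with the most detected genes). B3galnt2, a glycosyltransferase 126.6 kb from Gng4, rose at 4 h (0.84 ± 0.14, adjusted p = 3.55e-04). On the other side of Gng4, Lyst, a regulator of lysosomes at 5.3 kb, fell at 8 h (-0.79 ± 0.15, adjusted p = 0.00229). Leng8, 0.3 kb from Ttyh1, was at 109 ± 15.6 CPM after PBS and 104 ± 4.71 CPM after CGRP at 4 h, with no call (adjusted p = 0.728).

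Osbpl5, 6.7 kb from Mrgprg, fell at 4 h (-0.45 ± 0.10, edgeR adjusted p = 0.00407; 0.0617 without the 4 libraries with the most detected genes). Hikeshi, a nuclear import carrier 15.1 kb from Ccdc81, rose at 4 h (0.41 ± 0.12, adjusted p = 0.0223) and 8 h (0.45 ± 0.12, adjusted p = 0.0218). Its calls were lost without any 1 of PBS 4 h replicates 1 and 2 and CGRP 4 h replicates 1 and 4 for 4 h (0.0539 to 0.0785), and of PBS 8 h replicates 2 and 3 and CGRP 8 h replicate 4 for 8 h (0.0556 to 0.0893). The next gene, Eed of the Polycomb machinery, rose at 8 h (0.48 ± 0.15, adjusted p = 0.0451), lost without PBS 4 h replicate 1, any PBS 8 h library or CGRP 8 h replicates 1, 3 or 4 (0.0505 to 0.16). Slc48a1, a heme transporter 61.7 kb from Vdr, was lower at 4 h (-0.31 ± 0.10, adjusted p = 0.0312), lost without PBS 4 h replicates 2, 3 or 4 or CGRP 4 h replicates 2, 3 or 4 (0.0515 to 0.095).

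**Figure D4:**
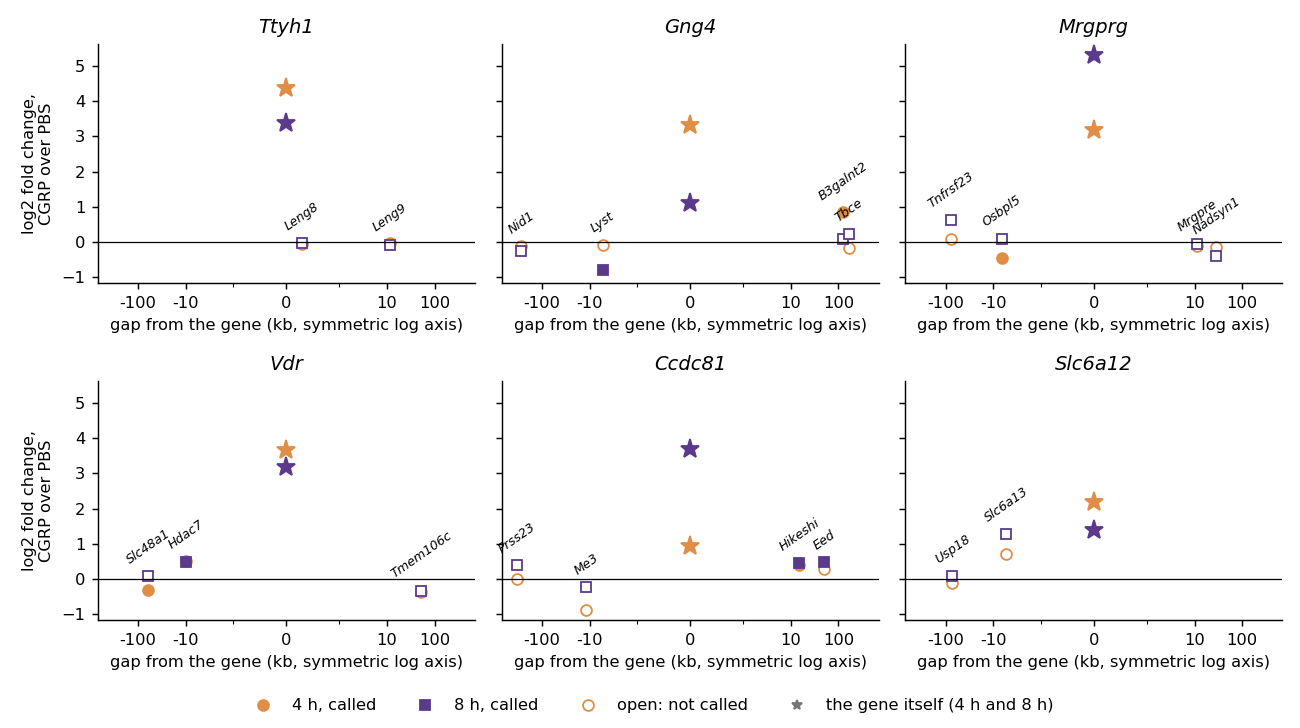
For each of the 6 genes (panels), stars at 0 mark the gene itself and the other points its tested neighbours, by their gap in kb (horizontal axis, symmetric log scale, negative towards lower coordinates) and log2 fold change of CGRP over PBS (vertical axis) at 4 h (orange) and 8 h (purple); filled points passed an adjusted p of 0.05. The neighbours lie between -0.87 and 1.28, and the 8 h star of Mrgprg is a fitted value against a group at 0 counts.

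Promoter sequence was available in RefSeq (GRCm38.p6) for 5 of the 6 genes, as 10 windows from 250 bases before to 50 after a start site. Cyclic AMP acts on transcription through CREB, which binds TGACGTCA and, more weakly, its core TGACG, so these were searched on both strands, with the AP-1 site TGANTCA, the NR4A site AAAGGTCA, the vitamin D receptor site (AGGTCA, 3 further bases and AGGTCA again) and the TATA box TATAAA. Every TGACGTCA also holds the core, and no other pair of these motifs is nested. TGACGTCA was in none of the 10 windows, beside 1.79% of the 32851 windows of all genes. The core was in 2 of the 10 windows (20.81% of all) and the AP-1 site in 1 (7.81%). AAAGGTCA (1.51% of all), the vitamin D receptor site (0.006%) and TATAAA (13.62%) were in none. The sequences below run from 100 bases before the start site up to it, on the coding strand, with matches in capitals: the downstream start of Gng4, in an intron of another transcript, holds the core 2 times, the first start of Slc6a12, upstream of its annotated transcripts, holds an AP-1 site and the core on the opposite strand, and Ttyh1, the gene with the largest 4 h ratio, holds none.
Gng4 (chr13:13784207-13784306, plus strand): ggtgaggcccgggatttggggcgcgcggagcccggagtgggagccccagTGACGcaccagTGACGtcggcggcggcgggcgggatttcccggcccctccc
Slc6a12 (chr6:121342474-121342573, plus strand): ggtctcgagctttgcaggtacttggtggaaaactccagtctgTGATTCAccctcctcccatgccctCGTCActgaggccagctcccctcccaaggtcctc
Ttyh1 (chr7:4119430-4119529, plus strand): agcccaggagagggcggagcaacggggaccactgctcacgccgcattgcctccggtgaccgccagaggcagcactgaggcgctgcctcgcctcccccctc

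The windows also differed in base composition. Those of Gng4 held 58.3% and 71.3% G or C with 17 and 29 CpG, that of Vdr 61.3% with 15 CpG and that of Ttyh1 63.3% with 14 CpG. Mrgprg had 51.7% with 5 CpG, and the windows of Slc6a12 had 55.7% to 57.7% with 2 to 5 CpG. Over all windows the median was 52.7% (quartiles 45.7% and 61.7%) and 7 CpG (3 and 20). The genes thus share neither a motif of those searched nor one promoter composition in these windows, and a match or its absence says nothing of a factor's binding.

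Genes whose log2 CPM followed each of the 6 most closely over the 16 libraries were named as a description, from 12283 genes; the libraries fall into 4 groups, so these correlations mostly reflect group means. For Ttyh1 they were Ssrp1 (Pearson r = 0.944), Mmp11 (0.94) and Papd4 (0.938), and for Gng4 Uap1 (0.937), Atp5d (0.936) and Procr (0.936). Mrgprg was followed by Sv2c (0.956), Cnih1 (0.926) and Socs3 (0.92). Closest to Vdr were Csgalnact1 (0.934), Ywhag (0.927) and Grk5 (0.916), and closest to Slc6a12 Adgrd1 (0.956), Ugdh (0.948) and Samhd1 (0.94). Ccdc81 had weaker matches in Qpctl (0.894), Col17a1 (0.881) and Slc27a3 (0.876). Of these, Col17a1 shows the course of Ccdc81 plainly, with group means of 10.5 CPM in PBS 4 h, 20.7 in CGRP 4 h, 5.69 in PBS 8 h and 22.6 in CGRP 8 h. Uap1, an enzyme of UDP-sugar synthesis, shows that of Gng4, with 414, 1720, 386 and 669 CPM in the same order. With group means removed, the 15 pairs among the 6 genes had r from -0.41 (Ttyh1 and Ccdc81) to 0.67 (Vdr and Ccdc81) over the 16 libraries. In PBS 8 h, Vdr had 6 counts and Ccdc81 17 over the group, so their deviations there turn on few reads, and nothing is read from these values.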

How the data were processed

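Polyadenylated RNA of 16 sorted cell samples was sequenced in paired 25-base reads (NextSeq500), per the labels' protocols. The deposited values are raw counts per gene symbol, made by the authors with STAR 2.5.4, featureCounts and the mm10 genome, per the submitters' processing notes; the sources used here do not give annotation, strand setting or multimapping. Symbols were placed with GENCODE M21 (49262 of 52997 matched). No pair of replicates was the same library: over 24 pairs within groups the chi-square was 6.52 to 22.7 times its degrees of freedom.

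edgeR 4.0.16 in R 4.3.3 (TMM scaling, filterByExpr, robust quasi-likelihood fit, 12 residual degrees of freedom, Benjamini-Hochberg adjustment, threshold 0.05) was fitted over all 16 libraries and 13949 genes. CPM are counts scaled by the TMM-adjusted totals of those genes. On simulated counts for 13721 genes, the 4 h comparison recovered 70.0% of 2-fold and 92.0% of 4-fold changes, with 5.81% of calls false. Alternatives were DESeq2 1.42.0, other scalings and filters, the replicate number as a block, and leaving out libraries. Replicate numbers did not pair samples.

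The 6 genes and all gene lists were chosen with earlier results of these data known. Named are the 6 genes, from each list up to 4 called genes with the smallest p plus 8 fixed ones, 2 protein-coding neighbours on each side, and for each of the 6 the 3 genes most correlated with it. Promoters are RefSeq's; Ccdc81 was not matched.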

Additional observations from a re-analysis of the deposited data

Results flagged for a closer look

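Among 201 groups of 4 libraries checked for 1 library far from the other 3, 14 stood out, and chance alone marks about 1 group in 20. Of the 6 genes, Mrgprg in CGRP 8 h replicate 2 (0.97 CPM) was high and Slc6a12 in CGRP 4 h replicate 3 (20.5 CPM) was low. Among related genes and neighbours, PBS 4 h replicate 4 stood apart for Ncoa3 (128 CPM), Cyp24a1 (0.625 CPM) and Me3 (16 CPM). The other PBS libraries were PBS 4 h replicate 1 for Tbce (30.6 CPM), replicate 2 for Leng8 (85.5 CPM) and replicate 3 for Prss23 (258 CPM), and PBS 8 h replicate 4 for Slc7a1 (12.8 CPM). After CGRP they were CGRP 4 h replicate 4 for Thbd (1260 CPM), and in CGRP 8 h replicate 1 for Ttyh3 (3.34 CPM), replicate 3 for Slc7a1 (18.5 CPM) and replicate 4 for Cyp27a1 (72.8 CPM) and Hikeshi (60.1 CPM).

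The effect of CGRP differed between 8 h and 4 h for 5 of the 71 tested related genes by edgeR's test of the difference itself. The share of all genes called in that test is not given here, so nothing is read from this count. On the log2 scale the 8 h effect less the 4 h effect was 0.86 for Gnb4 (adjusted p = 0.00577), 0.65 for Gng11 (0.0329), 0.74 for Mrgprf (0.00564), -1.12 for Thbd (1.77e-04) and -0.58 for Cdkn1b (0.0386).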

How the results depend on the processing

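For all 6 genes, CGRP over PBS kept its direction in the 23 alternatives, and the falls of Slc6a12, Gng4, Vdr and Ttyh1 after CGRP stayed called. The genes were chosen for that direction and for high levels after CGRP in these same libraries. Nothing is therefore read from the direction or the falls being kept. Without the 4 libraries with the most detected genes, 1 of the 6 genes in place of 2 fell after PBS, 2 in place of 12 related genes were called at 8 h, 3 in place of 5 neighbours at 4 h and 1 in place of 4 at 8 h, and 191 in place of 1210 genes at 8 h. This fit has fewer samples. Beside the calls named above, it lost those of Slc6a6, Slc6a7, Gabrr2 at 8 h, Gabbr1, Gabra3, Slc48a1, Hikeshi at 8 h and Eed. Of 72 genes called after PBS, the count was 323 with DESeq2 and 422 with no filter; the cause was not tested. Leaving out 1 library gave 0 to 4 of the 6 genes falling after PBS (Mrgprg, described above without a test, among the 4), 13 to 21 related genes at 4 h and 5 to 13 at 8 h, 3 to 6 and 2 to 5 neighbours, and over all genes 1481 to 2245 at 4 h, 577 to 1297 at 8 h, 17 to 280 after PBS and 666 to 1014 after CGRP. The lowest counts came without CGRP 4 h replicate 4, CGRP 8 h replicate 1, PBS 8 h replicate 1 and CGRP 8 h replicate 2, in that order. Related genes fell to 13 without PBS 4 h replicate 2 or CGRP 4 h replicates 1 or 4, and at 8 h to 7 without PBS 8 h replicate 1 and 5 without PBS 8 h replicate 4 or CGRP 8 h replicate 1. Neighbours fell to 3 without PBS 4 h replicate 2 or CGRP 4 h replicate 4, and at 8 h to 2 without PBS 8 h replicates 2 or 3 or CGRP 8 h replicate 4.

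Values near 0 that no fit called changed sign. Without the 4 libraries, log2 values were 0.20 for Ttyh1 after PBS, 0.50 for the Vdr effect at 8 h minus 4 h, 0.06 for Ccdc81 after CGRP, and 0.02 (4 h) and 0.30 (8 h) for Mrgpre. Leaving out 1 library gave -0.67 to 0.08 for Gng4 after PBS, -0.91 to 0.56 for that Vdr value, -0.24 to 0.08 for Ccdc81 after CGRP, -0.27 to 0.07 for Ttyh3 at 8 h, -0.37 to 0.14 and -0.34 to 0.16 for Mrgpre at 4 h and 8 h, and -0.01 to 0.11 for Rxra at 8 h.

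Replicate numbers did not pair the samples: same-numbered libraries of different groups had r of -0.079 to 0.092 in their deviations from group means. With the number as a block, 2167 genes were called at 4 h and 1100 at 8 h, with 2 of the 6 genes again lower after PBS; Slc6a6, Slc6a7, Gabrr2 at 8 h and Gabbr1 lost their calls (adjusted p 0.058, 0.0563, 0.0631 and 0.0571). Depth limits the PBS 8 h values most, with 0 counts of Mrgprg, 6 of Vdr and 17 of Ccdc81.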
